A study of Mus musculus with 16 samples.

Results

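Organoid lines grown from metastases of mice with pancreatic ductal adenocarcinoma were compared with one another. The 9 lines were those whose stage label is metastasis, of 16 lines in all; the other 7, labelled tumor, came from primary tumors and serve here only as a yardstick for spread. The mice were of the KPC model, described by the submitters as a model of pancreatic ductal adenocarcinoma, on strain C57BL6/J; age, sex and treatment are not among the labels used here. Mouse 6 gave 3 metastasis lines, from liver, diaphragm and ovary. Mouse 5 gave 2, from diaphragm and lung. Mice 4, 3 and 2 gave 1 line each from the peritoneum, and mouse 1 gave 1 line from the liver. All lines were cultured alike, in domes of Matrigel (a basement membrane gel) under a medium with EGF, FGF-10, gastrin, noggin, R-spondin and the TGF-beta receptor inhibitor A83-01, with no stromal or immune cells added in the protocol. Total RNA was depleted of ribosomal RNA and sequenced with a stranded kit, 1 library per line.

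KPC mice carry mutant alleles that a Cre recombinase switches on in the pancreas, and tumors of such mice spread mainly to the liver, lung, diaphragm and peritoneum. An organoid is a hollow or solid epithelial body that can be propagated from a piece of tissue. Because the culture medium keeps epithelial cells and supports few others, a metastasis organoid reports on the tumor cells with little of the host organ around them. Pancreatic cancer cells of the duct lineage can take on gastric and intestinal programs, known as the classical subtype, or squamous programs, known as the basal subtype.

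A line's level of a gene is given as CPM, its count scaled by the line's normalised library size, and spread is the standard deviation (SD) of log2 CPM over lines, so that an SD of 1 means that lines typically lie a factor of 2 from their mean. Deposited counts per metastasis line ran from 24624420 to 47945773. The diaphragm line of mouse 5 stood apart. There, 72.7% of the counts fell on 3 genes that collect ribosomal RNA reads (CT010467.1, AY036118 and Lars2), against 0.0185% to 18.5% in the other 8 lines, and its normalised library size was 9001100 against 40528600 or more. An off call at 0.5 CPM therefore rests on 4.50 counts in that line and on 20.3 or more in the others. The comparisons of pairs and the gene counts are also given without it. Tumor and metastasis lines of 1 mouse, and metastases of 1 mouse, are not independent animals, so tests over lines measure partly the spread inside an animal.

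The cells in the 9 libraries were epithelial. Krt19, a duct keratin, lay at 664, 1169 and 1863 CPM (lowest, median and highest line), Epcam, an epithelial adhesion molecule, at 185, 369 and 495 CPM, and the cadherin gene Cdh1 at 212 CPM or more. Defining genes of fibroblasts (Dcn, Lum), macrophages (Adgre1, Tyrobp) and acinar cells (Cpa1) were at 0 in all 9 lines. The 10 fibroblast markers summed to between 0.191 and 0.889 CPM, the 10 immune markers to between 1.89 and 5.22 CPM, the 10 acinar markers to between 0.111 and 1.64 CPM, and the 9 skeletal muscle markers to between 1.14 and 2.94 CPM. The host organ did not appear in the lines named after it: the 10 lung epithelial markers were highest in the peritoneum line of mouse 2, through Sftpd alone, and Sftpc, Nkx2-1 and Scgb1a1 were at 0. The hepatocyte sum, 3.78 to 378 CPM, came from Apob. The mesothelial sum, 986 to 2146 CPM, came from Msln and Krt19, which tumor duct cells also make. The endothelial sum of 4.67 to 15.1 CPM was mostly Egfl7, and the ovary and oviduct sum was 8.80 to 26.8 CPM, in the ovary line of mouse 6 no higher than in the peritoneum line of mouse 2. In bulk RNA, fewer cells that make a transcript and less transcript per cell cannot be told apart.

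Promoter sequences of an on or off pair and of a pair of steady genes show a difference in CG content that recurs over the gene sets below. The 300 bases run from 250 before to 50 after a RefSeq start (build GRCm38.p6), with CG dinucleotides in capitals. Cldn18, a tight junction gene of the stomach with the largest spread among autosomal genes once the genes that collect ribosomal RNA are set aside, has its upstream start at chr9:99717218-99717517 on the minus strand, with 9 CG (10 at its other listed start). Tmem176b, a membrane protein gene that was nearly silent in mouse 6 only, has its most upstream start at chr6:48841325-48841624 on the minus strand, with 4 CG (1 and 2 at its other listed starts). Serf2, the gene with the least spread, lies behind chr2:121448948-121449247 on the plus strand, with 31 CG. Tox4, a subunit of a phosphatase complex on chromatin and among the 12 steadiest genes, lies behind chr14:52278896-52279195 on the plus strand, with 27 CG.
Cldn18: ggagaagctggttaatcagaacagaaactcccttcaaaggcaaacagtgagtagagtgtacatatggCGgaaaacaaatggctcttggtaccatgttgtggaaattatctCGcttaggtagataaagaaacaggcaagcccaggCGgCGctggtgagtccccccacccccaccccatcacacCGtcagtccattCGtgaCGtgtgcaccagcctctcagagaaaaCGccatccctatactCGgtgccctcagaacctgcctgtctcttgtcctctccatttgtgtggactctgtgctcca
Tmem176b: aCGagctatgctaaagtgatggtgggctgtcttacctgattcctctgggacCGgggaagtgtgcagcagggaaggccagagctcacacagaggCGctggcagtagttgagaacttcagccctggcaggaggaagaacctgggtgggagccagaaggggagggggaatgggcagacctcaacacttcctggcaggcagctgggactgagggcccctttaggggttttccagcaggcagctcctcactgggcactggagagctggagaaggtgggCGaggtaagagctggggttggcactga
Serf2: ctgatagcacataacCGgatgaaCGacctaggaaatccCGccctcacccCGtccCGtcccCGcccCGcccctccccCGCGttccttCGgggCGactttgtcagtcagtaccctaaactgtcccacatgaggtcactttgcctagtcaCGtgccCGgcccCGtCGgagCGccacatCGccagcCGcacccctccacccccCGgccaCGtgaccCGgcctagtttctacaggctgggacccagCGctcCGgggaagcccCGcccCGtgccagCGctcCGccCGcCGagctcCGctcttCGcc
Tox4: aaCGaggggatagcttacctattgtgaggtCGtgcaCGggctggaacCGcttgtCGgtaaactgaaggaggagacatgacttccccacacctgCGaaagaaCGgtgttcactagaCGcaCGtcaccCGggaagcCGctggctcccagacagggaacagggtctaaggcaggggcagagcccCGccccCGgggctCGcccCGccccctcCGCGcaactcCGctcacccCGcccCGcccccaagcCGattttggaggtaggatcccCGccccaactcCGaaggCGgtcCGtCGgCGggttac

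The same contrast held in counts over sets of genes, given as a description. Of the 260 protein coding genes that were on in 1 line and off in another (defined below), 186 matched a promoter of the RefSeq table, and the median promoter held 9 CG in 300 bases. For the tenth of coding genes with the highest SD the median was 15.5 CG (720 of 964 matched), and for the tenth with the lowest SD it was 24 CG (802 of 964 matched). All coding genes with a mean of at least 5 CPM had a median of 22 CG (7656 of 9639 matched), and all 27025 promoters in the table a median of 7. A CG content at or over 0.6 of that expected from base composition was found in 35.5% of on or off promoters, 51.5% of the high spread set, 89.5% of the low spread set, 79.4% of coding genes with a mean of at least 5 CPM and 36.5% of all promoters. On or off genes thus resembled the table as a whole in CG content, and the steady genes did not. The sets differ in mean level, and the part of level in this was not tested.

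Lines of 1 mouse were closer to each other than lines of different mice, and no difference between pairs from the same and from different organs was detected. The distance between a pair of lines was taken as the root mean square (RMS) difference in log2 CPM over the 9919 genes with a mean of at least 5 CPM. The 4 pairs from 1 mouse lay at 0.52 ± 0.10 (SD), from 0.43 for the diaphragm and ovary lines of mouse 6 to 0.64 for the diaphragm and lung lines of mouse 5. The 32 pairs from different mice lay at 0.88 ± 0.09, from 0.73 for the liver line of mouse 1 and the peritoneum line of mouse 3 to 1.07 for the peritoneum line of mouse 4 and the lung line of mouse 5. No pair of different mice was as close as any pair of 1 mouse. The labels give neither a clone nor a culture date. Mouse and batch of derivation therefore cannot be told apart, here or in the comparisons of mice below. The difference of -0.37 had an exact permutation p of 0.000794 over the 1260 ways to assign lines to mice, two-sided and the smallest this design allows, and 0.00198 after adjustment over the 5 such tests made. Without the diaphragm line of mouse 5 the difference was -0.41. Without mouse 6, a single one-mouse pair is left and the difference of -0.24 had a p of 0.133 in the exact permutation test, where 0.0667 is the smallest possible over 15 assignments. On log2(TPM + 1), whose total includes the genes that collect ribosomal RNA, the difference was -0.15 with an exact permutation p of 0.740; with TPM rescaled without those 3 genes it was -0.28 with an exact permutation p of 0.000794.

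In gene counts, the diaphragm and ovary lines of mouse 6 differed more than 4-fold at 35 genes, the liver and diaphragm lines of mouse 6 at 55, the liver and ovary lines of mouse 6 at 94, and both lines of mouse 5 at 123. On average that was 0.774% of genes for a pair from 1 mouse and 3.05% for a pair from different mice, where the count ran from 192 to 447. Pearson correlations of log2 CPM across genes, which are not independent points, were 0.928 to 0.970 for pairs of 1 mouse and 0.817 to 0.910 for pairs of different mice. Lines of different mice that came from the same organ lay at 0.89 ± 0.06 (5 pairs, SD) and those from different organs at 0.88 ± 0.09 (27 pairs). The difference of 0.01 was within that spread, with an exact permutation p of 0.860, and its sign turned under several settings and when single lines were left out. The 5 pairs are the 3 among peritoneum lines, the liver lines of mice 6 and 1, and the diaphragm lines of mice 6 and 5.

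**Figure D1:**
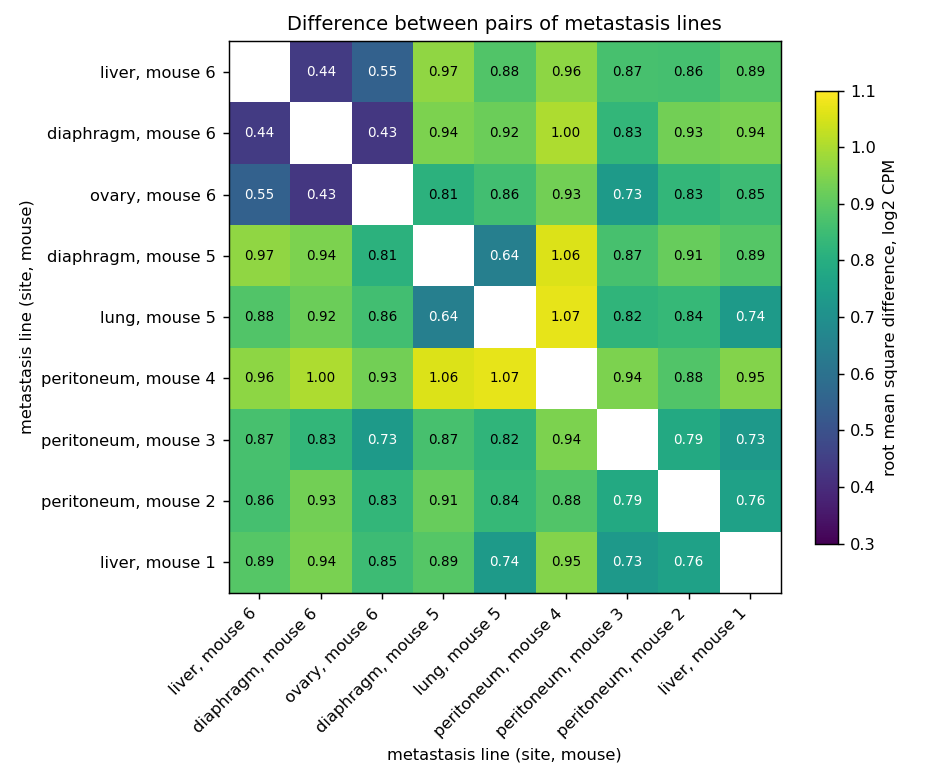
RMS difference in log2 CPM (colour) between each pair of the 9 metastasis lines over 9919 genes, with lines named by site and mouse on both axes. The 3 lines of mouse 6 and the 2 lines of mouse 5 form the low blocks, 0.43 to 0.64, and the peritoneum line of mouse 4 has the highest values, up to 1.07.

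The peritoneum line of mouse 4 was the furthest from the rest, with a mean RMS difference of 0.98 to lines of other mice; for the other 8 lines this mean ran from 0.82 to 0.93. The diaphragm line of mouse 5 was at 0.92, no further than the diaphragm line of mouse 6 at 0.93. The median SD over genes was 0.16 for the 3 lines of mouse 6, 0.22 for the 2 lines of mouse 5 and 0.32 for the 6 mouse means. A median SD runs lower the fewer values each SD rests on, so these figures cannot be set directly against one another.

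Metastasis lines were further apart from animal to animal than tumor lines were. The genes here are the 10117 with a mean of at least 5 CPM over all 16 lines. The 32 metastasis pairs of different mice lay at 0.89 ± 0.08 (SD) and the 20 tumor pairs of different mice at 0.69 ± 0.25. The difference of 0.20 had an exact permutation p of 0.00417 over 480 exchanges of stage within mice, two-sided, and 0.00521 after adjustment over the 5 tests. A single tumor line, tumor replicate 6 of mouse 6, lay at 1.096 from tumor lines of other mice; without it the 15 tumor pairs lay at 0.56 and the difference became 0.33. Without the diaphragm line of mouse 5 the difference was 0.19. The median SD per gene was 0.33 over metastasis lines and 0.25 over tumor lines, or 0.19 without tumor replicate 6. An SD over 1 was reached by 627 genes (6.20%) over metastasis lines and by 507 genes (5.01%) over tumor lines, or 258 (2.55%) without tumor replicate 6. The call rested on the scale: with 1 minus Pearson's r as the distance the difference was 0.03 with an exact permutation p of 0.0958, and over genes with a mean of at least 50 CPM it was 0.15 with an exact permutation p of 0.0521.

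**Figure D2:**
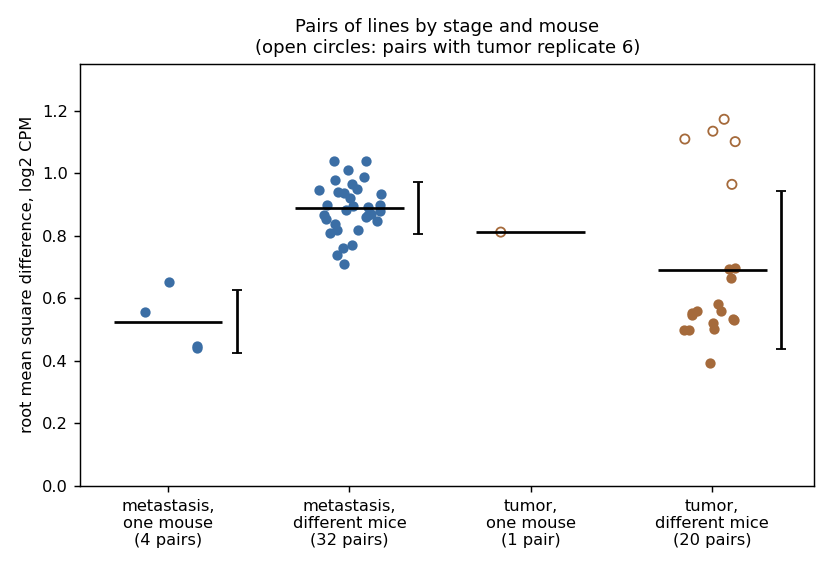
RMS difference in log2 CPM over 10117 genes for each pair of lines (points), with the mean (line) and SD (bar beside it), for metastasis and tumor pairs of 1 mouse and of different mice. The 4 one-mouse metastasis pairs lie below all 32 metastasis pairs of different mice, and the tumor pairs reach the height of the metastasis pairs only where tumor replicate 6 takes part (open circles).

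Few expressed genes varied widely. The median gene had an SD of 0.33 over the 9 metastasis lines, and 4818 of 9919 genes (48.6%) had their highest line within 2 times their lowest. Within 1.5 times lay 951 genes (9.59%). At the other end, 598 genes (6.03%) had an SD over 1 and 160 (1.61%) an SD over 2. Without the diaphragm line of mouse 5 the number with an SD over 1 was 607. Of the 11023 genes that reached 5 CPM in any line, 8497 (77.1%) did so in every line.

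The steadiest named genes were housekeeping genes in the wide sense, spread over transport, translation and transcription. Serf2, a small protein linked to protein aggregation (chromosome 2, 121449195 to 121458313), had 93.2 CPM in its lowest line, 100 in the median line and 107 in its highest, an SD of 0.06. Gpr107, a Golgi membrane protein, spanned 30.5 to 35.1 CPM (SD 0.07). Neither gene passed the test for differences between mice that is described below (edgeR adjusted p = 0.961 for Serf2 and 0.948 for Gpr107). Both were chosen for their low spread in the same values, so this outcome was largely fixed in advance and supports nothing. Of the 12 steadiest genes, 9 more were Fbh1 (a DNA helicase), Runx1, Tepsin (an adaptor of vesicle transport), Tox4, Cdc25b (the phosphatase that drives mitotic entry), Atp5h (ATP synthase), Mtif2 (mitochondrial translation), Rpl19 and Acin1 (splicing), with SDs from 0.07 to 0.09. Runx1, a transcription factor of the epithelium and of blood, held 24.8 to 29.6 CPM in all 9 lines, and Cdc25b 62.0 to 73.8 CPM. Rpl19, a protein of the large ribosomal subunit, held 681 to 827 CPM.

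Housekeeping groups were below the median spread of all genes, 0.33. The median SD was 0.26 over 81 ribosomal protein genes, 0.27 over 70 genes of the respiratory chain and ATP synthase, 0.27 over 35 proteasome genes and 0.27 over 14 housekeeping genes, and no member of these groups had an SD over 1. Single genes in these groups stood out. Rpl22l1, a paralogue of a ribosomal protein, ran from 14.6 CPM in the diaphragm line of mouse 5 to 122 CPM in the peritoneum line of mouse 4 (SD 0.88). Polr2a, the largest subunit of RNA polymerase II, had 46.8 CPM in the diaphragm line of mouse 5 and 11.6 to 19.2 CPM in the other 8. These groups lay low in the diaphragm line of mouse 5. There, 46 of 81 ribosomal protein genes had their lowest value, against 26.9% of all genes. Their median deviation from the 9-line median was -0.35 on the log2(CPM + 0.1) scale, against -0.11 for all genes. The lowest value also fell there for 20 of 35 proteasome genes, 28 of 70 respiratory genes and 6 of 14 housekeeping genes. The median deviations of those groups were -0.44, -0.31 and -0.21. The high ribosomal RNA share of this library moves with these values, and its part in them was not tested.

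The 11 driver and tumor suppressor genes had a median SD of 0.35, close to that of all genes, and none was over 1. Trp53 ran from 42.6 through a median of 57.0 to 63.2 CPM (SD 0.22), Smad4, the TGF-beta effector often lost in the human disease, from 46.0 to 70.1 CPM (SD 0.17), and Myc from 38.8 to 78.8 CPM (SD 0.29). Cdkn2a was on in every line, at 39.5 to 87.0 CPM (SD 0.30). Cell cycle genes (26 genes, median SD 0.34), cholesterol synthesis genes (21 genes, 0.36) and epithelial identity genes (16 genes, 0.40) also had no member over 1.

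Among lists with at least 4 genes measured at this level, sex-linked genes aside, those of the gastric and intestinal, classical and basal programs had the highest medians. The median SD was 2.47 over the 10 gastric and intestinal genes that reached a mean of 5 CPM (of 27), 1.66 over 12 of 19 classical subtype genes and 1.40 over 5 of 16 basal or squamous genes. These lists were filtered on their mean, so a gene high in a few lines could enter. Smaller medians, all still over 0.33, were found for duct transport (0.95, 11 genes), interferon response (0.77, 7 genes), matrix proteases and basement membrane (0.77, 20 genes), glutathione and Nrf2 genes (0.67, 18 genes), foregut transcription factors (0.65, 12 genes), chemokines (0.65, 5 genes), cancer germline genes (0.59, 4 genes), imprinted genes (0.55, 7 genes), hypoxia and glycolysis (0.54, 17 genes), Wnt targets (0.52, 5 genes), ERK feedback and EGF ligands (0.43, 18 genes) and MHC class I presentation (0.39, 6 genes). None of the 39 Hox genes, which pattern the body axis, reached a mean of 5 CPM, and their sum was at most 1.59 CPM in any line. The 7 MHC class II genes summed to at most 2.76 CPM.

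**Figure D3:**
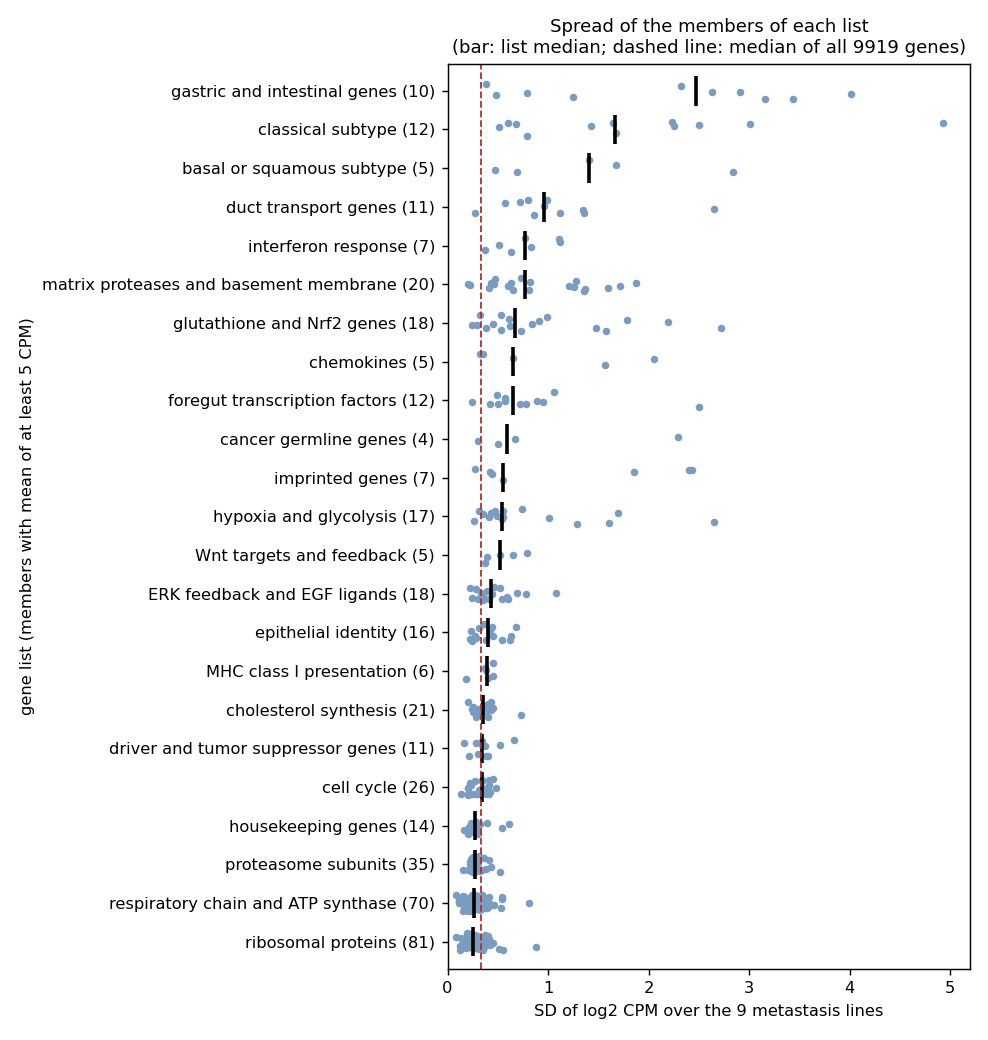
SD of log2 CPM over the 9 metastasis lines (horizontal axis) for each gene (points) of each list (rows), with the list's median as a bar, for members with a mean of at least 5 CPM; the dashed line is the median of all genes, 0.33. Ribosomal, respiratory and proteasome medians sit left of it at 0.26 to 0.27, and the gastric and intestinal median is 2.47.

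To ask which genes followed the animal, a model with 1 level per mouse was fitted to all 17829 genes with enough counts; its error comes from the lines inside mice 6 and 5 alone (3 residual degrees of freedom), and mice with a single line are assumed to vary alike. At an adjusted p under 0.05, 1877 genes (10.5%) differed between mice. Between the 3 lines of mouse 6 and the 2 lines of mouse 5, 1602 genes (8.99%) differed, of which 775 (4.35%) were higher in mouse 6 and 827 (4.64%) lower, and 709 of the 1602 differed more than 4-fold. The counts hang on single lines: without the diaphragm line of mouse 6 they were 472 and 246, and without its ovary line 630 and 670; without the peritoneum line of mouse 4, 1198 genes differed between mice, and without the diaphragm line of mouse 5 or its lung line, 751 and 889 differed between mice 6 and 5. Between all mice, 1513 genes differed without the diaphragm line of mouse 5. Among the 598 genes with an SD over 1, 339 (56.7%) differed between mice; both measures use the same values, so this share describes and supports nothing. Against the 10.5% of all genes, mice differed at 11 of 21 glutathione and Nrf2 genes (52.4%), 8 of 17 interferon genes (47.1%), 8 of 17 imprinted genes, 8 of 22 matrix genes, 8 of 24 gastric and intestinal genes, 5 of 16 classical genes, 5 of 16 foregut factors, 5 of 15 duct transport genes, 4 of 10 chemokines, 4 of 12 MHC class I genes, 3 of 11 basal genes, 4 of 19 ERK and EGF genes and 2 of 10 Wnt genes. For ribosomal proteins it was 6 of 82 (7.32%), for respiratory genes 3 of 72, for the proteasome 1 of 37, for cell cycle 2 of 26, for cholesterol synthesis 3 of 21, for hypoxia 2 of 17, for epithelial identity 2 of 16, for drivers 1 of 11 and for housekeeping genes 1 of 14.

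With the ribosomal RNA collecting genes set aside, Xist and Ddx3y had the largest spread. Xist, the RNA that silences an X chromosome (X, 103460366 to 103483254), had 212, 247 and 267 CPM in the liver, diaphragm and ovary lines of mouse 6, 146 CPM in the line of mouse 4 and 90.8 CPM in the line of mouse 3, and at most 0.333 CPM in the lines of mice 5, 2 and 1. Ddx3y, a Y-linked RNA helicase, was its mirror image, with 30.8 and 49.8 CPM in the diaphragm and lung lines of mouse 5, 31.7 and 28.1 CPM in those of mice 2 and 1, and at most 0.0194 CPM in the other 5. The Y-linked genes Eif2s3y, Kdm5d and Uty were on in the same 4 lines, at 12.7 to 31.0 CPM. All 5 genes differed between mice (edgeR adjusted p from 0.000880 to 0.00494), in every alternative tried. They are sex-linked, and lines of 1 mouse share its sex, so this outcome was largely fixed in advance. Sex itself is not among the labels used here.

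Cldn18 had an SD of 4.93, the largest of an autosomal gene when the ribosomal RNA collecting genes are set aside. It encodes a claudin of tight junctions in stomach and lung (chromosome 9, 99689461 to 99717267). It had 464, 538 and 370 CPM in the liver, diaphragm and ovary lines of mouse 6, 301 CPM in the line of mouse 2 and 167 CPM in that of mouse 1. In the diaphragm and lung lines of mouse 5 it had 0.444 and 0.216 CPM, and in the lines of mice 4 and 3 1.34 and 0.539 CPM. The lines thus fell into 5 at or over 167 CPM and 4 under 2 CPM, and both peritoneum and diaphragm lines occurred in each set. Its mean was 457 ± 84.1 CPM in mouse 6 and 0.330 ± 0.161 CPM in mouse 5 (SD, n = 3 and 2), a difference of 10.74 ± 0.38 (log2, SE; edgeR adjusted p = 0.000383), and the call held under every alternative.

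Other gastric genes did not follow Cldn18. Gkn1, a stomach peptide, had 18.0, 59.5 and 66.0 CPM in the lines of mouse 6, 13.3 CPM in the line of mouse 4, 2.50 CPM in that of mouse 2 and at most 1.78 CPM elsewhere; it was at 0 in the line of mouse 1, where Cldn18 was on. Its neighbour Gkn2 ran with it, from 22.5 CPM in the ovary line of mouse 6 to 0 in the line of mouse 1. Muc5ac, the mucin of the gastric surface, had 11.9 to 17.2 CPM in mouse 6, 8.55 and 0.983 CPM in the diaphragm and lung lines of mouse 5, and 1.83 CPM or less elsewhere. Tff1, a peptide secreted with that mucin, split mouse 6 itself, with 9.67 CPM in its liver line and 307 and 181 CPM in its diaphragm and ovary lines; it had 297 CPM in the line of mouse 4 and 0.514 CPM in that of mouse 3. Of these 4 genes, Gkn1 (edgeR adjusted p = 0.0352) and Muc5ac (0.0373) passed the mouse test, and both calls ended without the diaphragm or the ovary line of mouse 6 (edgeR adjusted p of 0.0852 to 0.101) and with limma-voom (adjusted p of 0.251 for Gkn1 and 0.0655 for Muc5ac).

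Further identity genes divided the mice in other ways. Gata6, a transcription factor of the foregut and of classical tumors, had 10.3 to 22.02 CPM in the lines of mice 6, 5, 4 and 2, against 0.612 CPM in the line of mouse 3 and 0.134 CPM in that of mouse 1 (mouse test, edgeR adjusted p = 0.00513). Gata4, its relative, was lowest elsewhere, with 6.00 and 3.54 CPM in mouse 5 against 18.6 to 28.4 CPM in mouse 6 (difference 2.34 ± 0.32, edgeR adjusted p = 0.0114). The water channel gene Aqp5 had 577 to 912 CPM in mouse 6, 431 and 620 CPM in mouse 5 and 649 CPM in the line of mouse 1, against 74.4 to 163 CPM in the peritoneum lines of mice 4, 3 and 2 (mouse test, edgeR adjusted p = 0.0106). Its 3 peritoneum lines lay below all other lines; each comes from another mouse, and site and mouse cannot be told apart in so few lines. Krt14, a basal keratin, reached 23.3 CPM in the diaphragm line of mouse 5 and 13.2 CPM in that of mouse 6 and was at 0.0335 CPM in the line of mouse 1. Alpi, an intestinal alkaline phosphatase, had 77.9 CPM in the diaphragm line of mouse 6, 0.0446 to 12.9 CPM in all others, and no call in the mouse test (edgeR adjusted p = 0.0794).

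Genes lower in mouse 6 than in mouse 5, and genes higher there, came from several families. Of the lower ones, some were nearly silent in mouse 6 only, and others were low in further mice as well. Tmem176b (chromosome 6, 48833818 to 48841496) had 0.0381, 0.233 and 1.09 CPM in the liver, diaphragm and ovary lines of mouse 6, 27.9 and 39.2 CPM in those of mouse 5 and 40.8 to 117 CPM in the other 4. The difference between mice 6 and 5 was -6.35 ± 0.78 (log2, SE; edgeR adjusted p = 0.00982). Tmem176a, which overlaps it on the other strand, gave -6.08 ± 0.65 (edgeR adjusted p = 0.00734); the strand setting of the counting is not given in the sources used here, so reads of the overlap cannot be assigned with certainty. Cd53, a tetraspanin best known from leukocytes, had at most 0.222 CPM in mouse 6, 11.2 and 14.8 CPM in mouse 5 and up to 36.3 CPM in the line of mouse 4, while the 10 immune markers never summed to more than 5.22 CPM. Otop1, a proton channel, and Ly6g, a surface protein used as a neutrophil marker, were lower in mouse 6 than in mouse 5. The differences were -4.34 ± 0.40 and -4.37 ± 0.46 on the log2 scale (edgeR adjusted p = 0.00516 and 0.00727). Low Otop1 was not particular to mouse 6, with 2.23 to 5.82 CPM there and 76.8 and 67.2 CPM in mouse 5. The lines of mice 4, 2, 3 and 1 had 0.201, 2.54, 11.7 and 30.6 CPM.

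Higher in mouse 6 than in mouse 5 were Apob, Ulbp1, Fbp2, Ptges and Gldc. Fbp2 had 33.5 to 60.5 CPM in mouse 6, 2.11 and 0.216 CPM in mouse 5 and 42.2 CPM in the line of mouse 3. Ptges had 30.3 to 41.4 CPM in mouse 6, 3.00 and 0.452 CPM in mouse 5 and 42.9 CPM in the line of mouse 4. The Ptges difference fell short of the threshold without the diaphragm line of mouse 6 (edgeR adjusted p = 0.0536). Apob, the protein core of lipoproteins, had 253, 376 and 321 CPM in the lines of mouse 6, 13.7 and 3.01 CPM in the lines of mouse 5 and 19.02 to 40.3 CPM in the other 4. The ovary and diaphragm lines of mouse 6 were as high as its liver line, and Alb, the defining hepatocyte gene, was at 0.02 CPM or less. The difference was 5.35 ± 0.68 (log2, SE; edgeR adjusted p = 0.0108). Ulbp1, a ligand of the NKG2D receptor of killer cells, had 14.98 to 16.6 CPM in mouse 6, 0.333 and 0.0787 CPM in mouse 5 and 8.84 to 29.2 CPM elsewhere; here mouse 5 was the one apart (difference 6.90 ± 0.47, edgeR adjusted p = 0.00290). Gldc, a glycine-cleaving enzyme, had 43.3 to 80.0 CPM in mouse 6 and 3.00 and 3.85 CPM in mouse 5 (difference 4.14 ± 0.33, edgeR adjusted p = 0.00433), and 81.3 CPM in the line of mouse 4. Ckb, the brain-type creatine kinase, had 286 to 296 CPM in mouse 6, 77.5 and 95.3 CPM in mouse 5 and 8.79 to 25.4 CPM in the other mice, so each set of mice had its own level (mouse test, edgeR adjusted p = 0.000880).

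**Figure D4:**
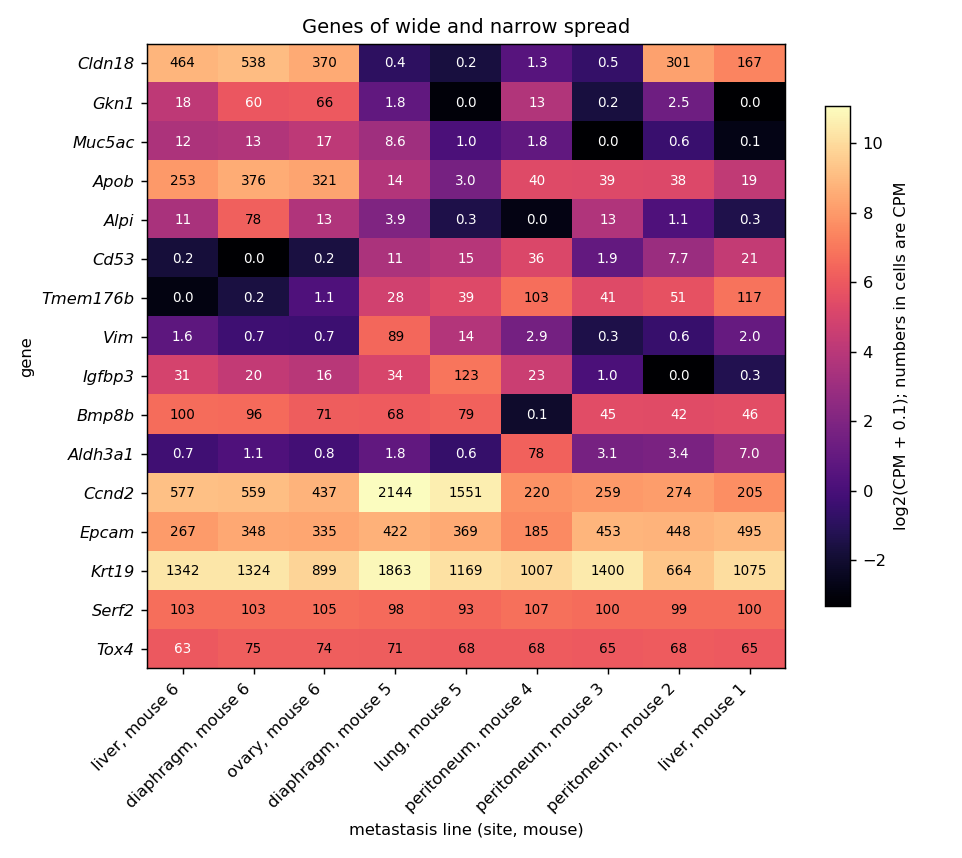
Levels of 16 genes (rows) in the 9 metastasis lines (columns, site and mouse); the colour is log2(CPM + 0.1) and the number in a cell is CPM. Serf2 is level at 93.2 to 107 CPM, Cldn18 falls into 5 lines at or over 167 CPM and 4 lines under 2 CPM, and the neighbouring columns of 1 mouse resemble each other.

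Several of the strongest mouse differences joined mice in other combinations. Klhl13, an adaptor of a ubiquitin ligase on the X chromosome, had 76.4 CPM in the line of mouse 4, 27.6 CPM in that of mouse 2 and at most 1.19 CPM in the other 7 (mouse test, edgeR adjusted p = 0.000559). Fut9, a fucosyltransferase, had 5.15 to 6.27 CPM in mouse 6, 42.9 and 51.5 CPM in mouse 5, 51.8 CPM in the line of mouse 3 and 0.111 CPM in that of mouse 4 (mouse 6 minus mouse 5, -3.11 ± 0.18; edgeR adjusted p = 0.00216). Sept5, a septin, was high in mouse 6 at 58.6 to 69.3 CPM and in the line of mouse 3 at 85.3 CPM, and had 10.2 to 20.5 CPM in the other 5. Krt27, a keratin of hair follicles, had 39.4 to 97.0 CPM in mouse 6, 10.7 and 11.4 CPM in mouse 5 and at most 1.78 CPM in the rest. Sgsm1, a regulator of Rab proteins, divided mouse 6, with 0.210 CPM in its liver line and 14.6 and 13.1 CPM in its diaphragm and ovary lines, and did not pass the mouse test (edgeR adjusted p = 0.113).

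Some genes were high in mouse 5 alone, and others were high there and in further mice. Sim1, a transcription factor of the hypothalamus and kidney, had 11.2 and 11.9 CPM in the diaphragm and lung lines of mouse 5 and at most 0.0734 CPM in the other 7 (mouse test, edgeR adjusted p = 0.00578). Ereg, an EGF receptor ligand, had 116 and 154 CPM in mouse 5 and 29.9 to 49.8 CPM in the other 7 (mouse 6 minus mouse 5, -1.62 ± 0.18; edgeR adjusted p = 0.00786). Vim, the intermediate filament of mesenchymal cells, had 88.9 and 13.7 CPM in the diaphragm and lung lines of mouse 5 and 0.269 to 2.88 CPM in the others (-5.74 ± 0.83, edgeR adjusted p = 0.0134; 0.0592 without the diaphragm line of mouse 6). The fibroblast markers summed to 0.889 CPM in the diaphragm line of mouse 5, the highest sum, and to 0.708 CPM in its lung line. Elsewhere they summed to 0.191 to 0.808 CPM. Sums this low cannot show whether these markers moved with Vim. The neutrophil-recruiting chemokine Cxcl1 had 13.3 and 16.4 CPM in mouse 5 and 1.26 to 1.73 CPM in mouse 6 (mouse 6 minus mouse 5, -3.37 ± 0.25; edgeR adjusted p = 0.00386), and was highest, at 20.7 CPM, in the line of mouse 3. Irx5, a homeobox factor, had 5.43 to 6.86 CPM in mouse 6, 11.9 and 12.4 CPM in mouse 5 and 4.79 CPM in the line of mouse 4, and was at 0 in the lines of mice 3, 2 and 1 (mouse test, edgeR adjusted p = 0.00163).

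Programs of stress and signalling stood out in single lines. Nrf2 is the factor that switches on glutathione synthesis and quinone reductases. Of the 18 glutathione and Nrf2 genes, 10 (55.6%) had their highest value in the peritoneum line of mouse 4, where 17.7% of all genes had theirs, and their median deviation there was 1.04 on the log2(CPM + 0.1) scale against 0.00 for all genes. Nqo1, a quinone reductase, had 38.1 CPM in that line and 0.0197 to 5.65 CPM in the others; Aldh3a1, an aldehyde dehydrogenase, had 78.5 CPM against 0.551 to 6.96 CPM. Chosen after their values were seen, Gclm, Gclc and Slc7a11, which make glutathione or import its cystine, had 200, 182 and 618 CPM there against highest values of 91.3, 108 and 244 CPM in any other line. In the lung line of mouse 5, 8 of the 18 genes (44.4%) had their lowest value, against 8.28% of all genes. Txnrd1, thioredoxin reductase, showed no such peak, at 119 to 202 CPM. The mouse calls of Nqo1 and Aldh3a1 (edgeR adjusted p = 0.0417 and 0.00562) ended without the line of mouse 4 (0.167 and 0.0676). For Nqo1 the call also ended without either line of mouse 5, without the diaphragm or ovary line of mouse 6 (edgeR adjusted p of 0.0686 to 0.0944), with a filter of 1 CPM in 2 lines (0.0524) and with edgeR's robust option (0.0505).

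The diaphragm line of mouse 5 held the highest value of 5 of 7 interferon response genes and of 9 of 17 hypoxia and glycolysis genes, against 9.11% of all genes. Irf7, an interferon-induced factor, had 20.1 CPM there, 5.94 CPM in the lung line of the same mouse and 1.63 to 6.71 CPM elsewhere. Car9, a hypoxia-induced carbonic anhydrase, had 51.0 CPM there, 10.4 CPM in the lung line and 0.214 to 14.3 CPM elsewhere, and Ankrd37 29.7, 1.57 and 0.523 to 8.29 CPM. Neither Irf7 (edgeR adjusted p = 0.0783) nor Ankrd37 (0.238) passed the mouse test. Library depth and the ribosomal RNA share of that line move with these values, and their part was not tested. The peritoneum line of mouse 2 was the opposite, with the lowest value of 12 of the 17 hypoxia and glycolysis genes against 13.6% of all genes. The classical genes peaked in the diaphragm line of mouse 6 (7 of 12, against 9.77% of all genes), as did cholesterol synthesis genes (12 of 21).

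On or off behaviour was rarer than graded difference. A gene was called on at 10 CPM or more and off under 0.5 CPM. Of the 9617 genes that reached 10 CPM in any line, 285 (2.96%) were off in at least 1 other line; 260 were protein coding and 20 lay on X or Y. For 19 genes every line was either on or off with none between. Of these 19, 8 lay on X or Y, 8 were on in 8 lines and 3 in a single line, and they include the ribosomal RNA collecting AY036118 and a pair of small nuclear RNA genes with equal values. Pairs of 1 mouse held 7.0 genes in opposite states on average (4 to 12), and pairs of different mice 42.7 (25 to 96). Inside mouse 6, 10 of the 285 were on in 1 line and off in another, and inside mouse 5, 12. The line with most genes off was the peritoneum line of mouse 4, with 137 of 285; the other 8 had 51 to 101. Without that line 191 genes were called, and without the diaphragm line of mouse 5, 279.

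Over the 19 clean genes, a pair of 1 mouse agreed at 92.1% ± 9.12 of genes (SD, 4 pairs) and a pair of different mice at 62.2% ± 17.4 (32 pairs). The difference of 29.9 percentage points had an exact permutation p of 0.00397, two-sided, and 0.00521 after adjustment over the 5 tests. Without the genes on X and Y it was 16.5 points with an exact permutation p of 0.133 over the remaining clean genes. Without the diaphragm line of mouse 5 it was 34.7 points. Without the liver or the diaphragm line of mouse 6 it was 24.7 points with an exact permutation p of 0.0619. The autosomal coding clean genes were Sim1, Bmp8b, Rangrf, Tspan12 and Zrsr1. Bmp8b, a BMP ligand, had 0.134 CPM in the line of mouse 4 and 42.4 to 99.6 CPM in the other 8 (mouse test, edgeR adjusted p = 0.00328; 0.0583 without that line). Rangrf and Tspan12, chosen after their values were seen, were off in the same line, at 0.201 and 0.111 CPM against at least 20.2 and 14.8 CPM. Zrsr1, an imprinted splicing factor gene also chosen afterwards, was off in the line of mouse 2 alone, at 0.261 CPM against at least 10.97 CPM.

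Several pairs of neighbouring on or off genes moved together. Given as description, with lines of 1 mouse among the 9 points, Pearson's r of log2 CPM was 0.99 for Tmem176a and Tmem176b, 0.99 for Evc and Evc2 (cilium proteins), 0.98 for the phosphatases Alpi and Akp3, 0.97 for Gkn1 and Gkn2, 0.96 for Il18r1 and Il18rap (subunits of the interleukin 18 receptor) and 0.91 for Duox2 and Duoxa2 (a hydrogen peroxide maker and its maturation factor). Others did not, such as Adcy1 and Igfbp3 at 0.54 and Ifitm1 and Ifitm3 at -0.06. These pairs lie within 100 kilobases of each other and were chosen by that distance. On or off genes that are not neighbours were not correlated for comparison, so the part of nearness was not tested.

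Genes peculiar to a line were sought after the values were seen, as those at least 10-fold above or below every other line. The peritoneum line of mouse 4 had most, 9 above and 8 below. Above were Mucl3 (219 CPM against at most 14.1), Cd34, a sialomucin of progenitor cells (79.3 against at most 5.48), Aldh3a1, Clic6, Padi2, Lrp2, Adh7, Rora and Col27a1. Among those below were Tns4, a focal adhesion protein (9.52 CPM against at least 116), Bmp8b, Tspan12, Ildr1, Rangrf, Arhgap44 and Nat8l. The line of mouse 3 had Duox2 at 35.7 CPM (at most 3.52 elsewhere) and Xlr3b, a germline gene of the X chromosome, at 26.2 CPM (at most 0.0393). The line of mouse 2 had Fmr1nb, a germline antigen, at 31.7 CPM and 0 elsewhere. Nrn1 was low in the line of mouse 1, with 2.40 CPM against at least 24.4. The liver line of mouse 6 had Adcy1, an adenylate cyclase, at 32.4 CPM against at most 2.93, and the diaphragm and ovary lines of mouse 6 had none. A gene shared with a sister line cannot meet this rule.

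Imprinted genes, expressed from the allele of 1 parent, showed losses in single lines. Cdkn1c, a cell cycle inhibitor, and Plagl1, a zinc finger factor, were at 0 counts in the peritoneum line of mouse 4. In the other 8 lines Cdkn1c had 2.17 to 10.7 CPM and Plagl1 2.77 to 14.3 CPM (mouse test, edgeR adjusted p = 0.00965 and 0.0113; for Plagl1 0.0602 without that line). Kcnq1ot1, the antisense RNA of the Cdkn1c domain, was not lost and had 55.6 CPM there against 30.7 to 49.3 CPM elsewhere. Rhox5, a homeobox gene of the X chromosome, had 76.7 CPM in the line of mouse 3 and 0.178 to 14.4 CPM elsewhere (mouse test, edgeR adjusted p = 0.0144).

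Whole chromosomes were shifted in ways that lines of 1 mouse shared. For each line and chromosome the median deviation of its genes from the 9-line mean was taken, without centring the lines. Over all genes this median was -0.14 in the diaphragm line of mouse 5 and -0.03 to 0.08 in the other lines. The chromosome values of that diaphragm line include this offset. Chromosome 19 had the widest range, 1.02 on the log2 scale over 373 genes: the liver, diaphragm and ovary lines of mouse 6 were at 0.45, 0.46 and 0.40, the diaphragm and lung lines of mouse 5 at -0.55 and -0.40, and the other 4 from -0.15 to 0.07. On chromosome 19, 137 of 615 genes tested (22.3%) differed between mice, against 10.5% of all genes. Ranges were 0.86 on chromosome 13, 0.80 on chromosome 12, 0.78 on chromosome 3, 0.75 on X and 0.71 on chromosome 8, and smallest on chromosomes 11 and 2, at 0.26. On chromosome 3 the line of mouse 4 was at 0.49 and those of mouse 6 from -0.29 to -0.19. Over all chromosomes the RMS difference between profiles was 0.12 ± 0.04 for the 4 pairs of 1 mouse and 0.30 ± 0.04 for the 32 pairs of different mice (SD). The difference of -0.18 had an exact permutation p of 0.000794, two-sided and the smallest possible, and 0.00198 after adjustment over the 5 tests. Without the diaphragm line of mouse 5 the difference was again -0.18. On log2(TPM + 1) it was 0.01 (exact permutation p of 0.977), with TPM rescaled without the 3 ribosomal RNA genes -0.15 (0.000794), and without mouse 6 -0.09 (0.133, where 0.0667 is the smallest possible).

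Smaller stretches moved together as well, found after the values were seen as runs of 15 neighbouring genes whose median passed 1 on the log2 scale. By that rule most genes of a window lie past 1. The counts of genes past 0.5 given here and below therefore follow largely from the choice of the runs and only describe them. On chromosome 6 such a run was high in the lung line of mouse 5 over 23 genes (125161715 to 131293244), 15 of them by more than 0.5, and another in its diaphragm line over 21 genes (129533160 to 136804415), 14 of them by more than 0.5. Inside the run of the lung line, the 6 neighbouring genes from Ndufa9 (start 126821721) to Parp11 (end 127494261) were high in both lines of mouse 5. Ccnd2, cyclin D2, which drives entry into the cell cycle, had 2144 and 1551 CPM in the diaphragm and lung lines of mouse 5 and 205 to 577 CPM in the other 7. Tigar, a regulator of glycolysis, had 104 and 116 CPM against 25.6 to 39.9 CPM, Rad51ap1, a DNA repair protein, 70.4 and 91.7 against 17.7 to 27.4 CPM, and Ndufa9, a subunit of respiratory complex I, 274 and 280 against 71.0 to 91.1 CPM. The 2 lines of mouse 5 lay above all others in each. Ndufa9, named for its spread among respiratory genes, differed by -1.81 ± 0.15 between mice 6 and 5 (log2, SE; edgeR adjusted p = 0.00444), and the others are given without a test because these values chose them. Further along the same chromosome, from Rassf8 to Amn1 (145746748 to 149188712), the diaphragm line of mouse 5 was low by more than 0.5 at 14 of 18 genes, and the lung line at 14 of 19 in a run that ends 1 gene later.

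**Figure D5:**
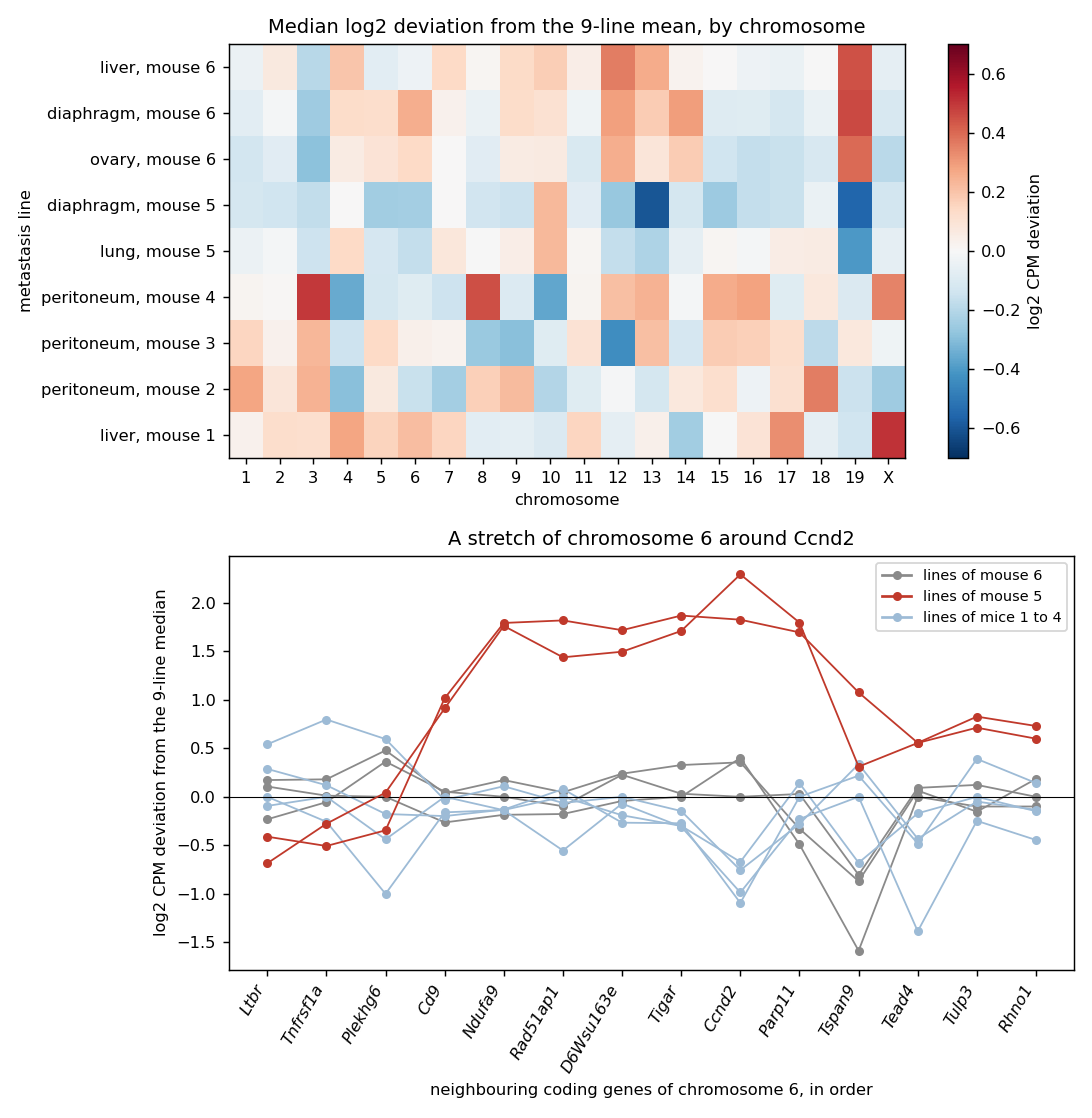
Top, median log2 deviation (colour) of the genes of each chromosome (columns) in each of the 9 metastasis lines (rows) from the mean of the 9 lines; bottom, log2 CPM deviation from the 9-line median (vertical axis) of neighbouring coding genes of chromosome 6, 1 curve per line. Chromosome 19 runs from 0.46 in the diaphragm line of mouse 6 to -0.55 in the diaphragm line of mouse 5, and both curves of mouse 5 stand above the rest from Ndufa9 to Parp11.

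The peritoneum line of mouse 4 had a low run on chromosome 12 from Ttc7b to Atg2b (100300770 to 105685211), in which 15 of 25 genes were low by more than 0.5 and the strongest window had a median of -1.64. The other 10 were not low by that much, and Tc2n was high (1.15). Golga5, a Golgi protein, had 8.63 CPM there and 21.1 to 39.5 CPM in the other 8 lines, and Btbd7 19.2 against 38.4 to 77.4 CPM. In a run of chromosome 10 (96617006 to 110939622) the same line was low by more than 0.5 at 17 of 24 genes. The line of mouse 2 was low by that much at 13 of 18 genes at the end of chromosome 9 (121710329 to 124312696), and the diaphragm line of mouse 5 at 15 of 17 genes of chromosome 13 (70551707 to 75772364). A stretch of chromosome 5 and part of that of chromosome 10 hold predicted genes that are near-identical copies, among which reads could have been divided, so those values are uncertain.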

How the data were processed

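RNA of 16 organoid lines was sequenced, 1 library per line, and the 9 metastasis lines are described here. Per the submitters' processing notes, the tools were FastQC 0.11.8, STAR 2.6.0c and RSEM 1.3.1 on genome build GRCm38.p6; strand settings are not given in the sources used here. Per the file headers, the authors' gene tables hold expected counts, estimates that need not be whole because reads shared by similar genes are divided. The deposited TPM values are scaled by the authors' tool for transcript length and to a fixed total per library, which includes genes that collect ribosomal RNA. The isoform tables were not used.

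Groups, mice and sites come from the labels. Expected counts were rounded and library sizes scaled by TMM (edgeR 4.0.16 in R 4.3.3). CPM with a prior count of 2 was put on the log2 scale, and genes with a mean of at least 5 CPM over the 9 lines were kept for spread and distances. Of 55487 gene identifiers, 55394 matched GENCODE M21, which gave names and positions. Pairs of lines were compared with exact permutation tests, two-sided, over all assignments of lines to mice or sites, or over exchanges of stage within mice, with Benjamini-Hochberg adjustment over the 5 tests. Replicate numbers follow accession order and do not pair the stages, since some same-numbered metastasis and tumor lines share a mouse and others do not; the mouse label pairs them, and it is the block of the stage test. Genes were tested with edgeR's quasi-likelihood test with mouse as the factor after filterByExpr, with Benjamini-Hochberg adjustment over 17829 genes. Promoters, 250 bases before to 50 after a start, came from RefSeq. Scripts were tested on simulated data with known changes.

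Named genes are the 12 lowest and 20 highest in spread, the clean on or off genes, the strongest results of both gene tests among genes with a mean of at least 10 CPM (predicted genes, pseudogenes and ribosomal RNA genes left out), the 2 most and 1 least variable members of each of 36 gene lists, and 12 set genes; others are named as chosen after their values were seen. A few genes that this rule names are not reported here. The lines, gene lists and tests were chosen with earlier results of these data known. Alternatives were other size factors (RLE), filters, prior counts, units and distances, DESeq2 1.42.0, limma 3.58.1, and each line left out in turn. The labels do not say that lines were cultured in replicate, so p-values measure the spread between lines only.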

Additional observations from a re-analysis of the deposited data

Results flagged for a closer look

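Quantities in which 1 of the 9 metastasis lines stood far from the other 8 are given with the gap between that line and its nearest neighbour, as a share of the whole range. Of 155 quantities tried, 11 (7.10%) passed. The cutoff passes about 1 in 20 where 9 values are independent draws from a normal distribution. Here some lines share a mouse, and many quantities are genes named for their spread in these data. The share that passed therefore cannot be set against 1 in 20.

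Of these, 4 belong to the peritoneum line of mouse 4. It was lowest for Bmp8b, a BMP ligand (gap 0.865 of the range), and for the imprinted growth inhibitors Cdkn1c (0.711) and Plagl1 (0.716), the imprinted pair with no counts at all. It was highest for Aldh3a1, an aldehyde dehydrogenase (0.495).

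The diaphragm line of mouse 5 accounts for 3. It was highest for Polr2a, the largest RNA polymerase II subunit (0.639), and for the share of counts in the 3 genes that collect ribosomal RNA (0.745), and lowest for total counts (0.564).

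The peritoneum line of mouse 2 was highest for the summed lung epithelial markers (0.900), which there consist almost wholly of Sftpd at 20.2 CPM, and for the median of chromosome 18 (0.523). Lgr5, a receptor of Wnt-dependent stem cells, was lowest in the peritoneum line of mouse 3, with 3.04 CPM against 8.61 CPM or more (0.525). The liver line of mouse 1 was lowest for Fst, an activin inhibitor, with 4.06 CPM against 10.2 CPM or more (0.567).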

How the results depend on the processing

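The closeness of lines of 1 mouse kept its direction and call under size factors, filters, prior counts, correlation distances and without genes of X and Y, and without any single line (-0.407 to -0.275). On log2(TPM + 1) it was -0.150 and without mouse 6 -0.235, both short of the threshold, and the chromosome profiles gave 0.0112 (reversed) and -0.0895 under these settings and -0.198 to -0.123 without single lines. Rescaling TPM without the 3 ribosomal RNA genes, an alternative added after seeing the data like those that leave out these 3 genes or X and Y or that centre lines or profiles, gave back both calls. The same-site difference, never past the threshold, was reversed over genes of at least 50 CPM (-0.00645), on log2(TPM + 1) (-0.0399; rescaled -0.00966; centred -0.00648), with 1 minus Pearson's r (-0.00115) or Spearman's rho (-0.00300), and without metastasis replicate 1 (-0.0113), 2 (-0.00245) or 8 (-0.00455); the highest without a line was 0.0376. The stage difference fell short at 50 CPM (0.150), on log2(TPM + 1) (0.293) and with 1 minus Pearson's r (0.0343), and ran from 0.155 to 0.332 without single lines; with no replicate block, that is without pairing stages by mouse, it was 0.197 with an exact permutation p of 0.00385. The causes were not tested.

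The 285 on or off genes became 583 with on at 5 CPM, 120 with on at 20 CPM and 146 with off under 0.1 CPM. Their agreement inside a mouse fell short without X and Y genes (16.5) and ran from 24.7 to 35.4 without single lines. Without a count filter 7046 genes differed between mice and 3749 between mice 6 and 5, with DESeq2 5292 and 2755, and with limma-voom 3100 between mice; leaving out single lines gave 472 to 2225 and 246 to 1615. Of 43 named genes called between mice 6 and 5, 23 kept the call under every alternative, and of 53 called between mice, 31; none reversed. SDs of 69 of 120 named genes moved on log2(TPM + 1). The diaphragm line of mouse 5, with a TMM-scaled library size of 9001100 counts, limits precision most for genes of low level.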
